A study of Homo sapiens with 6 samples.

Results

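Illumina HumanHT-12 v4 arrays, which measure transcripts with bead-bound probes, were used to describe the baseline transcriptome of mock SK-Mel-147 cells, an established line of human melanoma. These 2 mock arrays belong to a series of 6, in which 2 further arrays each were made from cells given miR-638, a microRNA, or antagomiR-638, an oligonucleotide that blocks it. All RNA was taken 48 h after transfection, and the treated cells are not compared here. The sources describe the controls in different ways. The titles call them mock-transfected, the treatment text mentions transfection reagent and a miRNA mimic, the design text names a non-targeting control and the column headings read NT. The arrays are duplicates, which the labels do not trace to separate cultures, so their spread may be technical. SK-Mel-147 is 1 line, and nothing here extends to melanoma cells as a class.

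Genes were ranked by the mean of both mock intensities, with the brightest probe standing for each gene. Of 47319 probes, 30112 carried a single gene symbol, for 20045 genes. A probe was detected where its detection p, the fraction of negative controls whose signal reached its own, was under 0.05. By this rule 10695 genes (53.4% of 20045) were detected on both arrays, 7830 (39.1%) on neither and 1520 on 1 array. The brightest 5% of genes, 1002 with a mean of at least 1420.3, are called high, and the next gene had a mean of 1419.4. The lowest 25% of the genes detected on both arrays, 2674 with a mean of at most 45.2, are called low, and the other 7019 intermediate. Probes differ in how well they bind, so the ranking orders probe signals and not amounts of transcript. For the same reason, an undetected probe does not show that the transcript of its gene is absent. The intensities have no fixed unit and were background-subtracted, so that a value near or below 0 is at the level of negative control probes. The weakest detected probe read 7.25 on array 1 and 7.47 on array 2, so detected genes near these values only just passed. Paired values below are intensities on array 1 and then on array 2.

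The arrays ranked the genes alike. Over all probes, 20426 were detected on array 1 and 20185 on array 2, and with only 2 arrays the precision of each mean is limited. Over the 10695 genes detected on both, Spearman's rho between the arrays was 0.993, a value across genes, which are not independent replicates. Over all 20045 genes, detected or not, rho was 0.947. The SD of the log2 ratio of array 1 over array 2 was 0.15 for high genes, 0.21 for intermediate genes and 0.49 for low genes, so the duplicates spread most where signals were weak. Of the 1002 high genes, 946 were in the top 1002 on each array alone. In the order of the 25 highest genes, the values of all 24 pairs of neighbours overlapped, so neighbours did not differ beyond the spread of the duplicates.

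**Figure D1:**
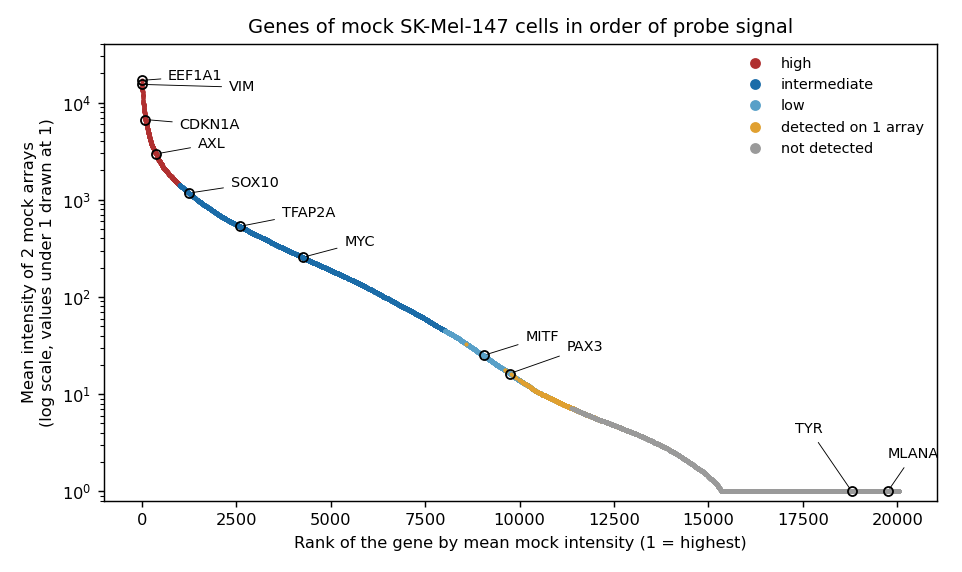
Mean intensity of the 2 mock arrays (log scale, values under 1 drawn at 1) against the rank of the gene, 1 being the highest, for the named genes other than Y-linked genes and XIST. Colours mark the signal bands and open circles name 11 genes. The signal runs from 16895 for EEF1A1 down to the level of negative control probes, with AXL in the high band, MITF and PAX3 in the low band, and TYR and MLANA not detected.

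Melanoma cells arise from melanocytes, the pigment cells of the skin, which descend from the neural crest. In melanocytes SOX10 and PAX3 drive MITF, the master regulator of the lineage, and MITF in turn drives the enzymes that make melanin. Cultured melanoma lines range between a pigmented, MITF-high state and a dedifferentiated, invasive state with high AXL, in which pigment genes are low. The melanocyte lineage genes, the pigment genes and the invasive genes are therefore described first.

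The 5 marker genes fell at very different points of the ranking. CDKN1A, the p53-driven inhibitor of cyclin-dependent kinases, gave 6971 and 6381, rank 102. SOX10, the neural crest factor that keeps melanocytes alive, gave 1046 and 1295, rank 1256. TFAP2A, the factor AP-2α, gave 509 and 556, rank 2606. Thus these 3 markers lay among the brighter genes on both arrays. MYC, a driver of growth and ribosome production, gave 187 and 324, rank 4260, and its arrays differed more than those of the other intermediate markers. MITF gave only 20.4 and 29.7, rank 9049, in the low band. Probe choice mattered for 3 of the markers. The second probe of CDKN1A read -1.77 and -1.44 and was not detected, and neither were the other probes of MITF, which read -0.69 and 5.55 on one and 0.99 and -3.999 on the other. Of the 4 further TFAP2A probes, 1 was detected on both arrays, at 49.00 and 60.1, while both MYC probes were detected, the second at 225 and 177. SOX10 had a single probe.

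Melanocyte transcription factors gave signals from above 1000 down to background. In all, 11 of 16 were detected on both arrays (68.8%), against 53.4% of all genes, and their median signal was 47.9. TFAP2C, a relative of TFAP2A, gave 1071 and 1378. SNAI2, a neural crest and migration factor, gave 1210.3 and 966, and LEF1, a nuclear partner of beta-catenin, gave 711 and 749. For each of these 3 genes a second probe was detected as well. ZEB2, a repressor found in differentiated melanocytes, gave 243 and 203, and SOX9, the close relative of SOX10, gave 119 and 112. The core activator PAX3 gave 10.8 and 21.8 on its brightest probe, and none of its 3 other probes was detected on both arrays. IRF4, a pigmentation regulator, gave 20.3 and 12.1. The remaining relatives were at background, with FOXD3 at 0.48 and -3.33 and TFAP2B at -1.25 and 4.95, both undetected. Within the MITF family, TFE3 was detected at 81.3 and 60.4, TFEC on 1 array only and TFEB on neither.

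Of 26 pigmentation and melanosome genes, 16 were detected on both arrays (61.5%), against 53.4% of all genes, with a median signal of 38.2. The 4 defining members, each read by 1 probe, were all undetected. TYR, tyrosinase, gave -4.63 and -2.04, and TYRP1, a related enzyme, gave -3.43 and -1.52. PMEL, the fibril protein of the melanosome, gave -1.76 and -4.33, and MLANA, the antigen Melan-A, gave -4.08 and -7.74. All 8 values lay below 0. OCA2, a transporter of the melanosome, and TRPM1, a cation channel, were undetected too, and SLC45A2, SLC24A5 and GPNMB passed on 1 array each. The 4 brightest members act in the trafficking of melanosomes and related organelles. AP3B1, an adaptor subunit, gave 1234 and 1454, HPS6, a part of the BLOC-2 complex, gave 683 and 693, RAB38, a melanosome Rab protein, gave 551 and 612, and MLPH, melanophilin, gave 445 and 580.2. MC1R, the receptor for the melanocyte-stimulating hormone, was detected at 109 and 128.

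Of 17 melanocyte receptors and surface proteins, 12 were detected on both arrays (70.6%), against 53.4% of all genes. Of these 12, 6 were in the low band, against 2674 of all 10695 genes detected on both arrays, and the median signal of the 17 was 20.9. ALCAM, an adhesion protein linked to melanoma growth, led the list at 1369.9 and 1096, and SEMA3C, a guidance protein, followed at 322 and 276. NCAM1, the neural cell adhesion molecule, gave 166 and 148. MCAM, the melanoma cell adhesion molecule, gave 72.4 and 68.2, and NGFR, a neural crest receptor, gave 64.7 and 69.2. ERBB3 gave 23.7 and 22.2 and EDNRB, the endothelin receptor of melanoblasts, 12.9 and 18.95, each on the brightest probe only. KIT, the growth factor receptor that melanocytes depend on, was undetected at -1.03 and 6.29. S100B, a routine stain of melanocytic tumours, was undetected at -2.95 and -2.47, as was CDH1, E-cadherin, at -5.74 and -3.87.

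Genes of the invasive state were present at the top of the ranking. Of 49 measured, 39 were detected on both arrays (79.6%) and 14 were high, against 53.4% and 5% of all genes, with a median signal of 372. VIM, the mesenchymal intermediate filament vimentin, ranked 7 at 15937 and 14775, and its second probe read 10085 and 10294. TGFBI, a matrix protein induced by TGF-beta, ranked 14 at 14844 and 13699. CD44, the hyaluronan receptor, gave 7999.9 and 9453, and CXCL8, interleukin-8, gave 7160.3 and 7091, with the other probe of CXCL8 at 4229 and 4531. AXL, the receptor tyrosine kinase that marks this state, gave 2824 and 3098, and its second probe gave 1973 and 2224. For VIM, CXCL8 and AXL, the second probe was therefore also in the range of the high genes.

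Secreted and contact genes of the same list were high too. THBS1, thrombospondin, gave 3633 and 4525, DKK1, an inhibitor of WNT signalling, gave 2694 and 2426, and CAV1, caveolin, gave 3191 and 3678. CDH2, N-cadherin, gave 2526 and 2643. The cadherin pattern was thus one of bright CDH2 beside undetected CDH1. Among the regulators, TEAD4, a partner of YAP, gave 396 and 505, FOSL1, an AP-1 subunit, gave 416 and 434, and WNT5A, a ligand of non-canonical WNT signalling, gave 227 and 246. Of the mesenchymal repressors and activators, TWIST1 gave 128 and 124, and ZEB1 gave 24.1 and 24.7. Not all members were detected on both arrays. FN1, fibronectin, was detected on 1 array at 4.11 and 15.04, and SNAI1, TGFB1, ROR2, LOXL2 and INHBA were undetected. These genes were chosen for a known state of melanoma cells, but with earlier results of these data known. Their shares therefore describe the list and are no independent evidence for that state. No test was made against the pigment list, since probe signals of different genes cannot be set against each other.

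**Figure D2:**
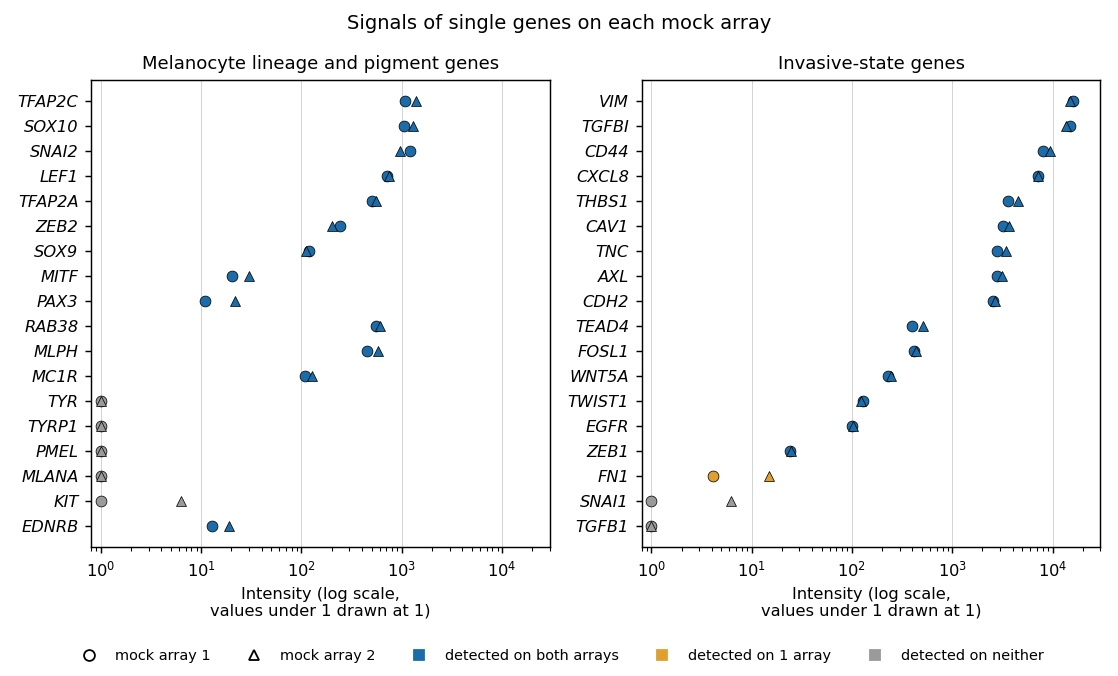
Intensities on mock array 1 (circles) and mock array 2 (triangles) of 18 melanocyte lineage and pigment genes (left) and 18 invasive-state genes (right), on a log axis with values under 1 drawn at 1. Blue marks detection on both arrays, orange on 1 and grey on neither. TYR, TYRP1, PMEL and MLANA sit at the floor on both arrays, while VIM, TGFBI, CD44 and AXL lie in the high band.

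The other high genes were led by protein synthesis. Of the 25 highest genes, 8 encode ribosomal proteins, and EEF1A1, the elongation factor that brings tRNA to the ribosome, ranked first at 17555 and 16235. The ribosomal genes were RPL6 at 15675 and 15675, RPL41 at 15476 and 15703, RPS19 at 14989 and 15476 and RPLP2 at 13658 and 15288. They were followed by RPL32 at 15156 and 13754, RPS16 at 13143 and 14517, RPS29 at 12492 and 14989 and RPLP1 at 12302 and 13825. TPT1, the translationally controlled tumour protein, gave 14775 and 16068. ANXA2, a membrane-binding annexin, gave 13617 and 14317, and F2R, the thrombin receptor PAR1, gave 13018 and 14844. RPSAP9, RRP7BP, SLC7A5P2, ANXA2P2 and RPL13AP20 are pseudogenes in the annotation, and their probes may share sequence with their parent genes, so their signals cannot be assigned to the pseudogenes. SNAR-A1, a small noncoding RNA of a multicopy family, ranked 2 at 15848 and 17555 and is uncertain for the same reason.

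Of 75 cytosolic ribosomal protein genes, 72 were detected on both arrays (96.0%) and 56 were high, against 53.4% and 5% of all genes. Their median signal was 5458. RPL10, RPL3L and RPL10L were the undetected members. All 43 translation factors and all 76 mitochondrial ribosomal protein genes were detected, with medians of 2268 and 591. EEF2, the translocase of the ribosome, gave 5842 and 6867, and EIF4A1, the helicase of initiation, gave 7617 and 7406. NACA, which binds nascent chains, gave 9413 and 8579, EIF3L, a subunit of the initiation factor eIF3, gave 8054 and 8474, and EIF4G2, a factor of cap-independent initiation, gave 7386 and 8260.2. Of the mitochondrial ribosome, MRPL3 gave 3199 and 3321 and MRPS12 2528 and 2912. All 33 aminoacyl-tRNA synthetases, 27 of 28 heterogeneous nuclear ribonucleoproteins and 41 of 44 proteasome genes were detected. Their highest members included HNRNPA2B1 at 7143 and 6791 and HNRNPD at 5676 and 5773, which bind pre-mRNA, and PSMC1 at 5026 and 5088 and PSMA6 at 4609 and 4951, of the proteasome. Of the synthetases, AARS1, for alanine, gave 3043 and 3817, and FARSB, for phenylalanine, gave 11268 and 10929, with its second probe at 8.09 and 5.39. In 13 lists and families of this kind, chosen as housekeeping machinery, 210 of 489 genes were high (42.9%), against 5% of all genes, and they made up 21.0% of the high genes.

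Both routes of energy production were represented. Of 57 oxidative phosphorylation genes, 55 were detected (96.5%) and 27 were high, against 53.4% and 5% of all genes, with a median of 1282. ATP5F1B, the catalytic subunit of ATP synthase, gave 9846 and 10331, and COX4I1, a subunit of cytochrome c oxidase, gave 5077 and 4808. ATP5F1A, the other main subunit of the ATP synthase head, gave 5319 and 5668, and UQCRQ, of complex III, gave 5736 and 5267. COX5A and COX7C, of complex IV, gave 4069 and 4683 for COX5A and 3968 and 3512 for COX7C, and NDUFB8, of complex I, gave 3763 and 3597. Of 25 glycolysis genes, 20 were detected (80%) and 9 were high, against the same shares of all genes. LDHA, which makes lactate, gave 9325 and 10489.8, and its second probe gave 9814 and 9025. ENO1, the enolase of most tissues, gave 8756 and 8283, and GAPDH, a dehydrogenase of the pathway, gave 6136 and 6169.9. PKM, pyruvate kinase, gave 1879 and 1756, LDHB, the other lactate dehydrogenase chain, gave 4149 and 4693, and PFKP, a phosphofructokinase, gave 2724 and 2841, with its second probe at -0.40 and 5.90. The undetected or singly detected glycolysis genes were the tissue-restricted forms PGK2, HK3, PGAM2, LDHC and PKLR. For hexokinase 1, HK1, the brightest probe gave 2962 and 2957 and none of its 3 other probes was detected on both arrays.

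Of 34 heat-shock chaperones, 26 were detected on both arrays (76.5%) and 15 were high, against 53.4% and 5% of all genes. A further 6 were undetected. The list was led by HSP90AA1 at 9089 and 9793 and HSPA8 at 6791 and 7025. HSPD1, the mitochondrial chaperonin, gave 6234 and 6234, HSP90AB1, the other cytosolic HSP90, gave 3368 and 3161, and CCT8, of the cytosolic chaperonin, gave 4591 and 4478. HSPB1, a small heat-shock protein, gave 3053 and 3328, and HSPH1, an exchange factor of HSP70, gave 3132 and 3188. HSPA6, a strictly stress-induced HSP70, was detected on 1 array, at 15.4 and 4.68. Of 28 chaperones and stress regulators of the endoplasmic reticulum, 25 were detected (89.3%) and 6 were high, against the same shares of all genes. ATF4, the factor of the integrated stress response, gave 5102 and 4564, and HSP90B1 gave 2791 and 2718. HSPA5, the chaperone BiP, gave 278 and 329.6, and DDIT3, the stress factor CHOP, gave 89.7 and 99.2. P4HB, a disulfide isomerase, gave 1416 and 1342, and CALR, calreticulin, gave 369 and 369.7. Of the translocon, SEC61B gave 3678 and 3659 and SEC61A1 1935 and 2256, and DNAJB11, a partner of BiP, gave 2209.6 and 2352.

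Cell division genes were detected with few exceptions, against 53.4% of all genes. All 46 G2/M genes, which act in mitosis, were detected on both arrays, with a median of 602, and 40 of 42 G1/S genes, which act in DNA replication, with a median of 423. CDC20, the activator of the anaphase-promoting complex, gave 3350.2 and 4179. CDK1, the kinase of mitotic entry, gave 966 and 903, and CCNB1, its cyclin, gave 444 and 551. CKS2, a CDK-binding protein, gave 2109 and 2548, UBE2C, a ubiquitin carrier of mitosis, gave 2282 and 2229.9, and PTTG1, securin, gave 1937 and 2000.2. MKI67, the common proliferation marker, had the lowest G2/M signal, at 51.4 and 48.1. Among replication genes, RRM1, a ribonucleotide reductase subunit, gave 3058 and 3299, and MCM2, a helicase subunit, gave 534 and 570.05. FEN1, a flap nuclease, gave 3026 and 3319.6, UHRF1, which maintains DNA methylation, gave 2366 and 2794, MCM7, a further helicase subunit, gave 1835 and 1775, and CCNE1, cyclin E1, gave 130.1 and 133. PCNA, the sliding clamp, gave 2359 and 1872, but its other probes read 13.1 and 2.87 on one and -1.79 and -3.94 on the other. The rank of PCNA thus rests on 1 probe. No other MCM7 probe was detected on both arrays either, and its second probe had a mean of 11.5.

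The promoters of the G2/M genes shared short sequence features, which are properties of the listed genes and not of their mock signals. In RefSeq, 39 of the 46 had an entry, 250 bases before to 50 after the annotated start. Within the 250 bases before the start, read on both strands, CCAAT or its complement ATTGG, the box bound by NF-Y, was found for 31 (79.5%), against 34.7% of all 15033 genes with an entry. TTTGAA or its complement TTCAAA, the core of the cell cycle homology region, was found for 23 (59.0%), against 10.8% of all genes. Both were found for 21 (53.8%), against 4.26% of all genes. The same search found TTTGAA or TTCAAA before 1 of 36 G1/S genes. CCAAT or ATTGG was found before 19 of these 36 (52.8%), so the NF-Y box was frequent in both groups. Motifs of this length also occur by composition alone, and a match is a description and not a binding site. The following 5 stretches, in which both motifs lie within 30 bases, show them in capitals, in either orientation, for bright and dim members of the group.
CDC20: gttggatTTTGAAggagCCAATaggcgctc
CDK1: taataaaTTTGAActgtgCCAATgctggga
HJURP: aaatttgTTTGAAaggcCCAATcagtgccc
GTSE1: agcccttTTCAAAccgaCCAATcggcaacc
MKI67: ttcgttttcgTTTGAATTGGgcgggcgcgc
They lie at chr1:43358909-43358938 for CDC20, chr10:60778163-60778192 for CDK1, chr2:233854624-233854653 for HJURP, chr22:46296837-46296866 for GTSE1 and chr10:128126433-128126462 for MKI67, in GRCh38.p14, all upstream of the annotated start. CDC20, CDK1 and GTSE1 are on the plus strand, and HJURP and MKI67 on the minus strand. In CDC20, HJURP and GTSE1 the motifs were 4 bases apart and in CDK1 5 bases apart. In MKI67 the motifs overlapped by 1 base. HJURP, a chaperone of the centromeric histone, gave 617 and 649, and GTSE1, a mitotic microtubule protein, gave 162 and 215, so the motifs occurred together before genes of quite different signal.

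Of 35 genes of the p53 and RB pathway, which holds both inhibitors and drivers of the cell cycle, 33 were detected on both arrays (94.3%), against 53.4% of all genes, and CDKN2B and CCND2 were not. Below CDKN1A, the highest were CCND1, cyclin D1, at 4131 and 4602, and CDK4, its kinase, at 3444 and 3480.3. Known p53 targets followed, with ZMAT3 at 3649.9 and 3254, CCNG1 at 3164 and 3345 and GADD45A at 1347 and 1504. MDM2, the ligase that degrades p53 and is itself a p53 target, gave 31.9 and 26.96 on its brightest probe, in the low band, and its second probe was undetected. RB1 gave 197 and 178. At the CDKN2A locus, which is often deleted in melanoma, the brightest of 3 CDKN2A probes gave 467 and 438 and the others were undetected. CDKN2B gave 6.74 and 6.52 and the neighbouring MTAP gave 652 and 601. TP53INP2, an autophagy protein that the study followed, gave 114 and 112.

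Of 33 measured genes of the RAS, MAPK and PI3K pathway, 27 were detected on both arrays (81.8%), against 53.4% of all genes. PHLDA1, a gene induced by ERK signalling, gave 3308 and 3442, SPRY2, a feedback inhibitor, gave 1329 and 1259, and DUSP6, an ERK phosphatase, gave 599 and 457. MAP2K1, the kinase MEK1, gave 896 and 811. SHC1, an adaptor of receptors, gave 2005 and 1756, but no other SHC1 probe was detected on both arrays. PTPN11, the phosphatase SHP2, gave 1569 and 1449, and RHEB, the activator of mTORC1, gave 1457 and 1312. DUSP4 was undetected at 4.37 and 2.35, as were AKT2, ETV1 and KSR1. In the MYC network 9 of 14 were detected (64.3%), with MXD4, a repressor that competes with MYC, at 513 and 637 and MAX, the common partner, at 47.3 and 45.3. MYCN and MYCL were undetected. MNT and MXD1, further MAX partners that repress, gave 117 and 128 for MNT and 83.3 and 97.97 for MXD1, and ZBTB17, a zinc-finger partner of MYC, gave 104 and 85.98.

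Among receptor tyrosine kinases, 20 of 49 were detected on both arrays (40.8%), against 53.4% of all genes. AXL was the only one in the high band. RYK, a WNT receptor, gave 1135 and 1322, MET, the receptor of hepatocyte growth factor, gave 384 and 304, ERBB2 gave 199.8 and 202 and EGFR 99.5 and 102. EPHA2, an ephrin receptor, gave 167 and 186, TYRO3, a relative of AXL, gave 169 and 165, and DDR1, a collagen receptor, gave 139.9 and 149. The undetected receptors included KIT, PDGFRA at 1.12 and -0.77, PDGFRB, IGF1R at 4.76 and 2.97, FGFR1 at -1.33 and -4.55 and the vascular receptors FLT1, KDR, FLT4, TEK and TIE1. In the BCL2 family, 13 of 17 were detected (76.5%). BCL2L1, which encodes the survival protein BCL-XL, gave 1134 and 951, MCL1 gave 584 and 734 and BCL2 itself 88.1 and 72.04. BAX, a killer protein and p53 target, gave 285 and 614, so that its arrays differed widely. BAK1, the other effector of cell death, gave 51.7 and 35.3. BCL2L2, a survival protein, gave 460.3 and 497, and the death-promoting members PMAIP1, BID and BOK gave 353 and 306 for PMAIP1, 141 and 153 for BID and 86.4 and 88.2 for BOK.

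Of 26 integrins and their partners, 12 were detected on both arrays (46.2%), against 53.4% of all genes, led by ITGB1, the common beta chain, at 7211 and 6773. ITGA3, a laminin receptor chain, gave 1403 and 1275, and ITGA5, a fibronectin receptor chain, gave 991 and 1118. ITGB5, a vitronectin receptor chain, gave 1252 and 1309, and ITGAE, a partner of ITGB7, gave 341 and 402. ITGAV gave 635 and 472, whereas ITGB3, its partner in the melanoma integrin αvβ3, was detected on 1 array only, at 11 and 1.57. Of 41 matrix genes, 26 were detected (63.4%) and 8 were high, against 5% of all genes. SERPINE2, a protease inhibitor, gave 6672 and 7617, LGALS1, galectin-1, gave 6040.5 and 6432, and the protease inhibitors TIMP2 and TIMP1 gave 2328 and 2858 for TIMP2 and 1558 and 1554 for TIMP1. SPARC, a matrix glycoprotein of invasive melanoma, gave 1507 and 1739.8. Among collagens, the fibrillar chains COL1A1, at 3.72 and 4.15, and COL3A1, at 0.80 and 0.084, were undetected, and COL5A1, another fibrillar chain, gave 338 and 403. COL7A1, the anchoring fibril collagen, gave 2789 and 2507 and COL4A1, of basement membranes, 549.7 and 773. Of 24 matrix metalloproteases, 5 were detected, with MMP16 the highest at 136 and 133, MMP2 at 36.1 and 56.7, and MMP1 and MMP9 undetected.

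Of 37 interleukins, 13 were detected on both arrays (35.1%) and 4 were high, against 53.4% and 5% of all genes. IL18, an inflammasome cytokine, gave 5865 and 6716, IL24, a cytokine first found in differentiating melanoma cells, gave 5552 and 5950.2, and IL1B gave 2239 and 2079. IL10 ranked in the high band at 2406 and 2492, but its second probe gave -2.42 and -4.07 and was undetected. IL1A gave 967 and 776 and IL6 103 and 104. Of 43 chemokines, 10 were detected (23.3%). CXCL1 gave 1023 and 1159.7 and CCL2 883 and 829, both below CXCL8 in the ranking, and CXCL10 was detected on 1 array at 7.57 and 5.54.

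Of 21 class I antigen presentation genes, 20 were detected on both arrays (95.2%), against 53.4% of all genes, with PDIA3 the exception. B2M, the light chain of all class I molecules, gave 4016 and 3901, HLA-B gave 1094 and 989.96, HLA-C gave 39.5 and 44.7 and the peptide transporter TAP1 gave 944 and 1048. ERAP2, a peptide-trimming enzyme, gave 3541 and 3466, PSMB10, of the immunoproteasome, gave 1177 and 1134, and HLA-E gave 593 and 556. HLA genes are polymorphic and closely related, so that single probe signals of these genes are uncertain. Class II molecules are normally made by professional antigen-presenting cells, and some melanomas make them too. Of 15 class II genes, 13 were detected (86.7%), with a median of 570. HLA-DRA, the alpha chain of HLA-DR, gave 3442 and 3748 on its first probe and 2261 and 2183 on its second. CD74, the invariant chain, gave 1159 and 1449.9, HLA-DMA, the peptide loader, gave 822 and 915, and CIITA, the master activator of the class, gave 58.9 and 70.4. The beta chains HLA-DRB4 and HLA-DRB1 gave 1745 and 1606 for HLA-DRB4 and 856 and 917 for HLA-DRB1, and HLA-DPA1 gave 779 and 742. In the same cells 5 of 18 leukocyte markers were detected on both arrays (27.8%), of which CD68, a lysosomal protein, was high at 1934 and 1813. Of the 3 defining ones, 2 were undetected, with PTPRC, the antigen CD45, at 2.79 and -2.61 and CD3E, of the T-cell receptor complex, at -5.02 and -3.15. The third, CD14, was detected at 19.4 and 24.3, with its second probe undetected.

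Of 20 type I and III interferon genes, 0 were detected on both arrays and 2, IFNE and IFNW1, on 1. Of 40 interferon-stimulated genes, 31 were detected on both arrays (77.5%), against 53.4% of all genes, with a median of 50.7. IFITM3, which blocks virus entry, gave 1371 and 1566, its relative IFITM2 gave 1318 and 1552, IRF9, a subunit of the ISGF3 complex, gave 648 and 703, ISG15, a ubiquitin-like protein, gave 306 and 419, MX1 gave 96.2 and 146.95 and IFIT1 44.7 and 62.2. RSAD2, OAS2, OASL, BST2, IFITM1, CMPK2 and DHX58 were undetected. The core of the interferon-stimulated response element, GAAA, any 2 bases and GAAA again, or its complement, was found in the 250 bases before the start of 19 of 32 of these genes with a RefSeq entry (59.4%), against 2.69% of all 15033 genes. It was found for 16 of the 27 that were detected on both arrays and for 3 of the 5 others. The motif stands in capitals, in either orientation, in the following 6 stretches, which show it before detected and, in the last pair, undetected genes.
IFITM3: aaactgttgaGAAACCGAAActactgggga
IFI44: gggcacactgagTTTCAGTTTCctttctct
ISG15: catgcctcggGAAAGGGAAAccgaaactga
IFIT1: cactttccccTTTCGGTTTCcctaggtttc
BST2: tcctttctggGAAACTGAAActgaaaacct
IFITM1: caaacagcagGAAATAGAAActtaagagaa
In GRCh38.p14 they lie at chr11:320876-320905, chr1:78649759-78649788, chr1:1013374-1013403, chr10:89392510-89392539, chr19:17405741-17405770 and chr11:313990-314019, in the order given, with IFITM3 and BST2 on the minus strand and the others on the plus strand. IFI44, an antiviral gene, gave 625 and 716, whereas BST2, which tethers virus particles, gave 2.28 and -0.13 and IFITM1, a relative of IFITM3, gave 0.21 and -1.70.

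Of 25 immune checkpoint genes and death ligands measured, 7 were detected on both arrays (28.0%), against 53.4% of all genes. CD274, which encodes PD-L1, was undetected at -0.35 and 2.10, as were PDCD1LG2, IDO1 and FASLG. NT5E, the ecto-enzyme CD73, gave 889 and 969. PVR, a ligand of TIGIT, gave 355 and 445, and CD276, the molecule B7-H3, gave 385 and 359.9, each with its other probes undetected on at least 1 array. CD47, the signal that restrains macrophages, gave 302 and 267. ULBP2, a ligand of NKG2D, gave 117 and 128, and NECTIN2, a ligand of TIGIT and CD226, gave 118 and 125.

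Of 31 cancer-testis antigens, which are normally confined to germ cells, 14 were detected on both arrays (45.2%), against 53.4% of all genes. MAGEA10 gave 2283 and 2797, MAGEA1 1218 and 1135, MAGEA12 1233 and 1079, MAGEA4 857 and 870.1 and MAGEA6 879 and 818. PRAME, a diagnostic marker of melanoma, gave 964 and 917. CTAG1B, which encodes NY-ESO-1, was undetected at 6.88 and 2.91, as were MAGEC1 and SSX2. MAGEA genes are near-copies of each other, so a signal may stem from a relative, and MAGEA3 gave 323 and 245 on 1 probe and -4.16 and -7.31 on the other. Of 29 HOX genes measured, 18 were detected on both arrays (62.1%), against 53.4% of all genes. These genes set position along the body axis, and HOXC6 gave 1362 and 1454, HOXB2 672 and 688, HOXB5 290.4 and 283, HOXC13 191 and 186 and HOXB7 209 and 228. None of the 3 other HOXC6 probes was detected on both arrays.

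Of 22 genes of the microRNA machinery, among which DNM2 and MIR638 were counted, 17 were detected on both arrays (77.3%), against 53.4% of all genes, and MIR638, AGO4, TNRC6C, LIN28A and LIN28B were undetected. DROSHA, which cuts primary microRNAs, gave 1038 and 985, DICER1, which cuts the hairpin, gave 411 and 418, and AGO2, the slicing Argonaute, gave 323 and 373. RAN, which drives nuclear export, gave 4361 and 5054, GEMIN4, found with Argonaute proteins, gave 1045 and 1188, and PRKRA, a partner of Dicer, gave 499 and 450.1. DDX5, a helicase of the Drosha complex, gave 4353 and 3791, with its second probe at 6.41 and 4.45. DNM2, dynamin 2, which hosts miR-638 in an intron, gave 33.4 and 28.9, in the low band, and its second probe gave 22.2 and 39.5. The probe named MIR638 gave 3.26 and 4.45 and was undetected. The value is no measure of the mature microRNA.

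**Figure D3:**
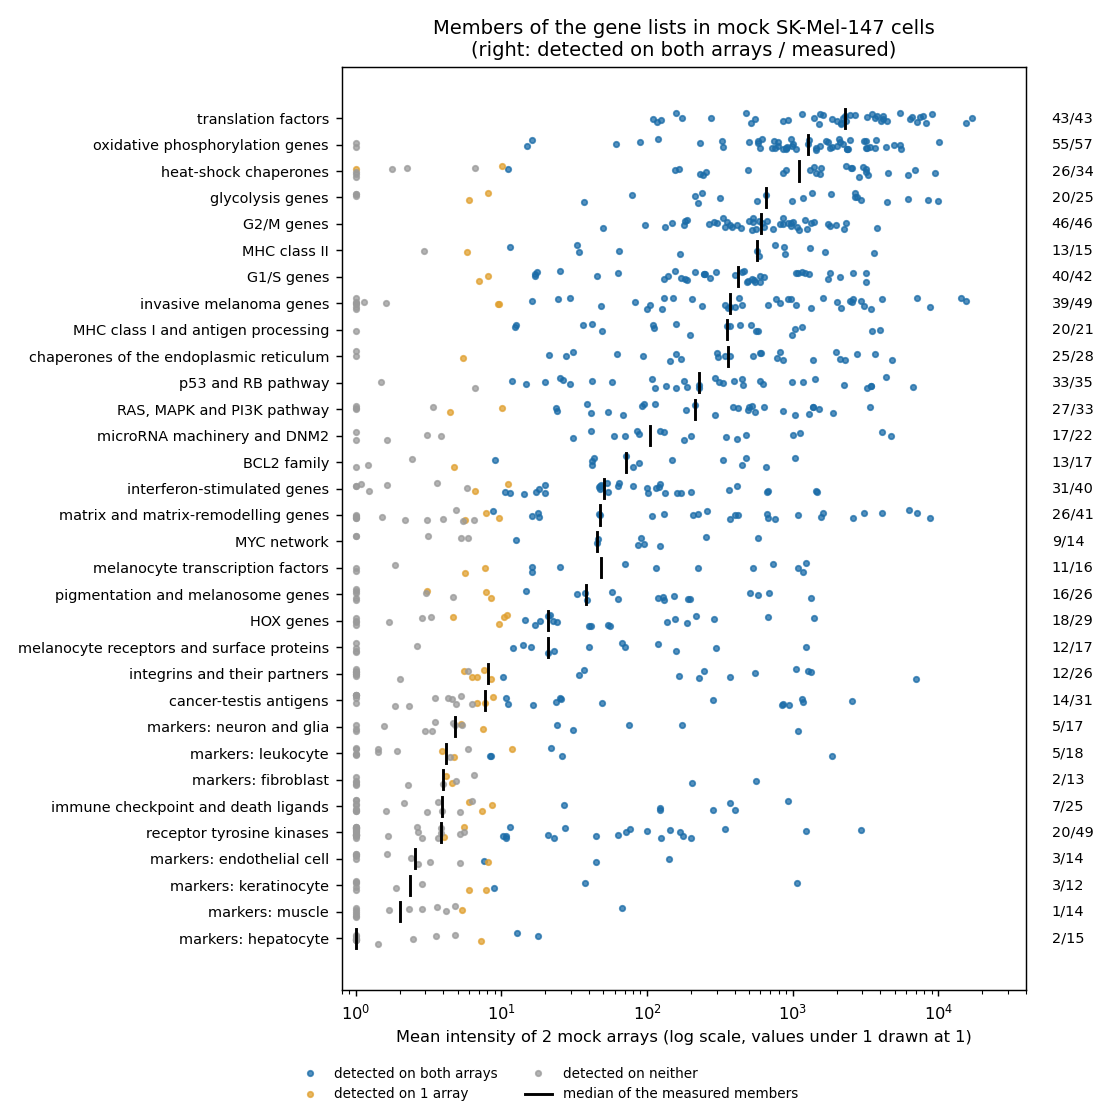
Mean intensity of the 2 mock arrays (log axis, values under 1 drawn at 1) for the members of 32 gene lists, 1 point per gene, with the median of each list as a bar and lists ordered by the median percentile of their members. Numbers at the right give members detected on both arrays over members measured. Translation factors, at 43 of 43, stand at the top, and the hepatocyte markers, at 2 of 15, at the bottom.

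Markers of other cell types were mostly undetected. The counts of members detected on both arrays were 3 of 12 for keratinocytes, 2 of 13 for fibroblasts, 5 of 18 for leukocytes, 3 of 14 for endothelial cells, 5 of 17 for neurons and glia, 2 of 15 for hepatocytes and 1 of 14 for muscle, all below the 53.4% of all genes. Most defining members were undetected, among them KRT5, KRT14 and KRT1 of keratinocytes, COL1A1, COL1A2, COL3A1 and PDGFRA of fibroblasts, PECAM1, VWF and CDH5 of the endothelium, GFAP, SYN1, MBP and RBFOX3 of the nervous system, TTR and APOA1 of hepatocytes and MYH2, ACTA1 and CKM of muscle. The exceptions were KRT10 at 1017 and 1111, CD14 and ALB at 10.1 and 15.6. Some non-defining markers were brighter, namely CD68, given above, TUBB3, a beta-tubulin, at 1019 and 1167, and LUM, lumican, at 558 and 563. Further detected members were FLG at 29.8 and 44.8 and DSC3 at 10.3 and 7.53 of the keratinocyte list, ACTA2 at 202 and 207 of the fibroblast list, and FCGR3A at 30.8 and 20.9 and CD2 at 7.93 and 9.12 of the leukocyte list. The endothelial list gave ENG at 139 and 142, ROBO4 at 42.5 and 46.99 and ESAM at 7.48 and 7.73, and the neuron and glia list OLIG2 at 164 and 184, NEFL at 78.02 and 71.1 and SYT1 at 30.2 and 32.02. SERPINA1 gave 17.6 and 18.2 and TNNT1, a muscle troponin, 73.4 and 61.5. IVL, PKP1, FAP, CD79A, SELE, FGB and MYH6 were detected on 1 array, and COL6A3, APOA2, FGA, MB and MYH1 on neither. Their part in the other results was not tested.

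Large families of specialised receptors and structural proteins were mostly undetected. Of 371 olfactory receptors, 7 were detected on both arrays (1.89%), against 53.4% of all genes, with OR51B4 the highest at 217 and 215. A further 29 were detected on 1 array only. The next olfactory receptor in the order, OR2W3, gave 39.04 and 37.3. Of 25 bitter taste receptors 1 was detected, TAS2R20 at 13.5 and 12.5, and of 37 beta-defensins 1, DEFB103A at 8.71 and 7.53. TAS2R14 and DEFB123 passed on 1 array. Of 80 keratin-associated proteins 3 were detected, among them KRTAP10-11 at 26.7 and 17.8 and KRTAP7-1 at 9.84 and 10.4. Among 49 keratins 5 were detected, led by KRT80 at 2145 and 2212, whose second probe was also detected at 264 and 327. Of 90 cadherins and protocadherins, 15 were detected and 12 of these were low, against 25% of all genes detected on both arrays. After CDH2 came PCDHB9, a protocadherin, at 146 and 149. The claudins CLDN12, at 519 and 619, and CLDN14, at 253 and 303, led the 4 of 23 detected, and the globins HBE1, at 179.6 and 184, and HBG2, at 29.8 and 25.9, the 4 of 10. Of 19 WNT ligands 3 were detected, with WNT5B at 24.9 and 22.2, and of 22 FGF ligands 5, with FGF2 at 42.9 and 52.9 and FGF1 at 36.2 and 33.4. Of 14 crystallins and 19 glucuronosyltransferases 2 each were detected, CRYBB2 at 30.3 and 24.5 and CRYGS at 31.4 and 15.2, and UGT1A3 at 9.81 and 8.59 and UGT1A6 at 8.51 and 7.77.

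Other families held both detected and undetected members. Of 483 ZNF genes, 334 (69.2%) were detected, against 53.4% of all genes, with a median of 30.9. Of these 334, 126 were in the low band, against 25% of all genes detected on both arrays. Their 2 highest were ZNF674 at 12680.4 and 13018 and the pseudogene ZNF876P at 5654 and 7116, whose second probe gave -2.90 and -5.19. Of 358 SLC transporters, 182 were detected (50.8%), and of 45 mitochondrial carriers of the SLC25 family, 31 (68.9%). SLC25A5, an ADP and ATP carrier, gave 5229 and 6269, and SLC25A3, a phosphate carrier, gave 4900.1 and 3963. SLC16A12, a monocarboxylate transporter family member, gave 5815 and 5851, and its second probe -2.22 and 6.46. Of 39 voltage-gated potassium channels, 6 were detected, KCNH6 at 5563 and 6503 with its other probes undetected, and KCNG1 at 681 and 659. The ephrins EFNB2 and EFNA1 gave 469 and 464 for EFNB2 and 377 and 385 for EFNA1, and the P450 enzymes CYP20A1 and CYP51A1 gave 286 and 257 for CYP20A1 and 298 and 234 for CYP51A1. Of the cytoskeleton, the actins ACTG1 and ACTB gave 11102 and 12559.5 for ACTG1 and 9546 and 9917 for ACTB, and the tubulins TUBA1A and TUBA1B gave 11199.7 and 12075 for TUBA1A and 7512 and 8344 for TUBA1B. The kinesins KIF20A, of mitosis, and KIF5B, of transport, gave 989 and 1005 for KIF20A and 710.4 and 617 for KIF5B. The proton pump subunits ATP6V0E1 and ATP6V1B2 gave 2531 and 2626 for ATP6V0E1 and 2453 and 2567 for ATP6V1B2. Among other families with bright leaders, S100A10 gave 7179 and 7319, S100A6 4335 and 3896, MT2A, a metallothionein, 6419 and 7160.3, MT1E, another, 4855 and 5037, ANXA1, an annexin, 5704 and 5642, SERPINB7 1497 and 1688, and FTL, the ferritin light chain, 10774 and 10194. FTMT, mitochondrial ferritin, was undetected.

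Bright signals were not always shared by the probes of a gene. Of the 1002 high genes, 503 had more than 1 probe. For 424 of these (84.3%) at least 1 other probe was detected on both arrays, and for 79 (15.7%) none was. The second probe was more than 10 times weaker than the first for 200 of the 503 (39.8%). Only 132 high genes had a second probe that itself reached the high band. The disagreement was found at the very top of the ranking. LAIR1, an inhibitory receptor of leukocytes, ranked 3 at 16235 and 15156, but its second probe gave 5.999 and -2.82. CLUAP1, a ciliary protein, gave 14317 and 15937, and its 4 other probes, all detected, had means between 23.4 and 72.9. ITIH5, a hyaluronan-binding protein, gave 13754 and 13452 with no other probe detected on both arrays, and CCR6, a chemokine receptor, gave 10995 and 12107 with both other probes undetected. FAM177A1 gave 13087 and 13795, with its second probe at 81.8 and 82.3. For MSH3, a mismatch repair protein, the first probe gave 12590.1 and 14106 and the second 151 and 133. The thymosin TMSB4X, an abundant actin-binding protein, gave 10194 and 11199.7 on the first probe and -0.81 and -0.021 on the second. The reason for the disagreement was not tested. Where probes were discordant, or a gene had 1 probe, the rank is that of the probe.

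**Figure D4:**
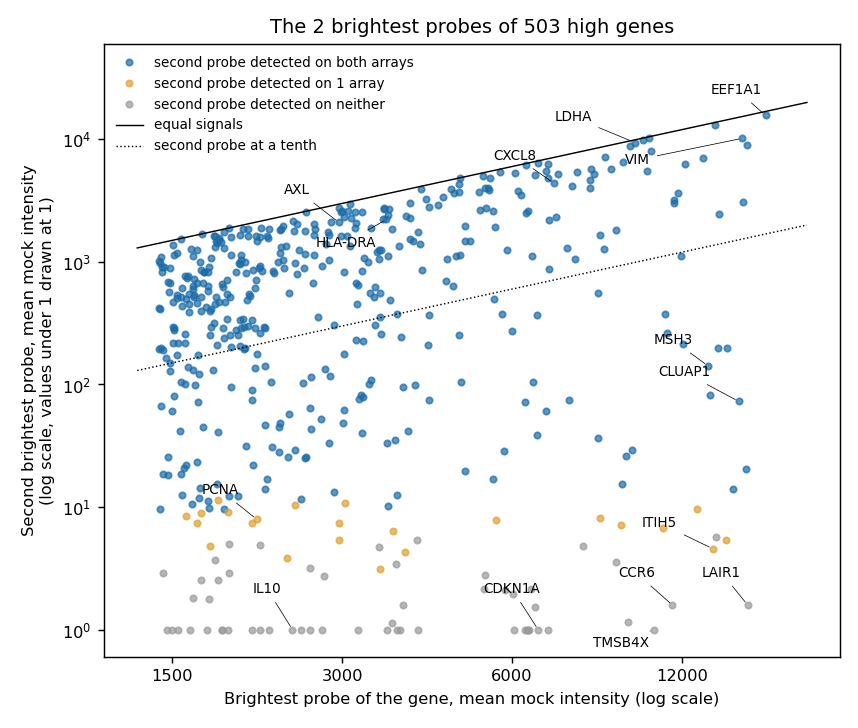
Mean mock intensity of the brightest probe (horizontal, log scale) and of the second brightest probe (vertical, log scale, values under 1 drawn at 1) of the 503 high genes with more than 1 probe. The solid line marks equal signals and the dotted line a second probe 10 times weaker. VIM, LDHA, AXL, CXCL8 and HLA-DRA lie near the solid line, while LAIR1, ITIH5, CCR6, IL10 and CDKN1A have a second probe at background.

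Gene type and promoter composition differed between bright and undetected genes. Of 17776 protein-coding genes 57.2% were detected on both arrays, of 798 long noncoding RNA genes 20.8%, of 561 microRNA genes 5.53% and of 279 small nucleolar RNA genes 34.4%. By chromosome, leaving out Y, the share was 44.8% on X, the lowest, and 60.4% on chromosome 16, the highest. Promoters of genes that most cells use are often rich in CpG pairs. The ratio of observed to expected CpG pairs in the RefSeq promoter windows had a median of 0.87 for 835 high genes, 0.86 for 5828 intermediate genes, 0.80 for 2052 low genes, 0.61 for 1067 genes detected on 1 array and 0.42 for 5251 undetected genes. The interquartile ranges of the high and the undetected genes overlapped only slightly, at 0.74 to 0.97 and 0.19 to 0.78. A TATAAA box on the gene's strand, between 50 and 11 bases before the start, was found for 2.63% of high and 6.68% of undetected genes. The share was 1.41% for intermediate and 2.34% for low genes, so it did not fall steadily as signal rose. CACGTG, the E-box that MYC and MITF bind, was found in the 250 bases before the start for 11.98% of high and 6.02% of undetected genes. At the start itself, runs of 5 pyrimidines (C or T) from the first base were counted. This pattern is looser than the mark of transcripts whose translation follows nutrient signals, which begins with C. The pattern was found for 41 of 63 ribosomal protein genes (65.1%), against 4.91% of all genes and 13.3% of high genes. These shares describe the annotated starts, which need not be those used in SK-Mel-147 cells.

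**Figure D5:**
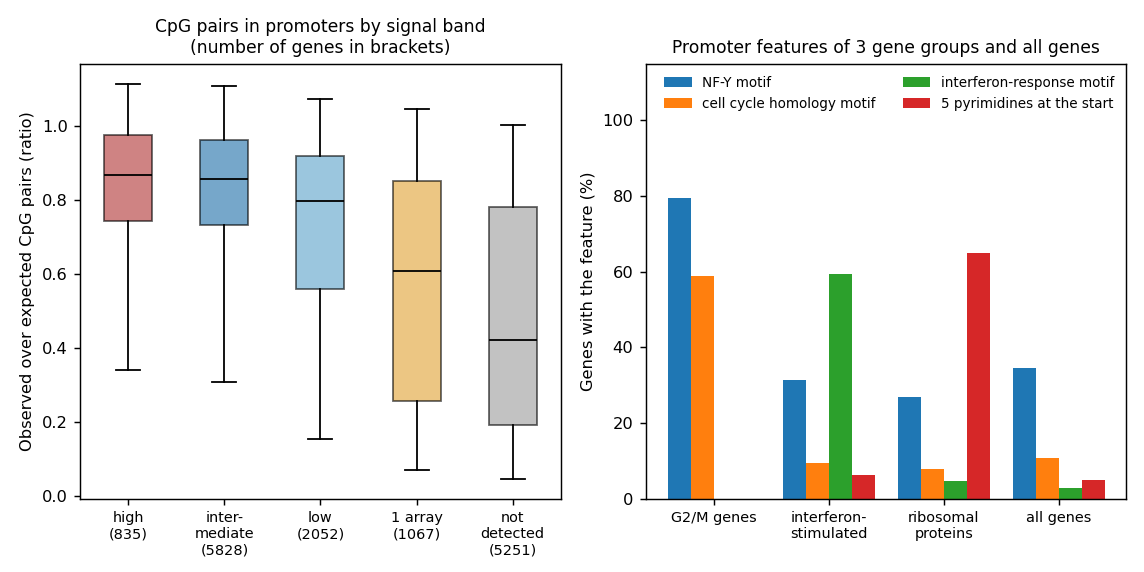
Left, ratio of observed over expected CpG pairs in the RefSeq promoter window by signal band, with boxes from the lower to the upper quartile, lines at the median and whiskers from the 5th to the 95th percentile. Right, share of genes (%) with each of 4 promoter features in 3 gene groups and among all genes. The median CpG ratio is 0.87 for high genes and 0.42 for undetected genes, and the cell cycle homology motif occurs before 59.0% of G2/M genes and 10.8% of all genes.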

How the data were processed

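Total RNA of SK-Mel-147 cells was labelled and hybridised to Illumina HumanHT-12 v4 arrays. Per the labels the authors processed the arrays in R with lumi (version not given in the sources used here). In the deposited table, intensity is linear and background-subtracted, with 26.2% and 26.1% of the mock values below 0. They were already quantile-normalized, since the sorted mock columns differ by at most 0.212, so overall differences in brightness can no longer be seen. The deposited detection p-value, exported by the authors, moves in steps of 1 in 770. A second deposited table of intensity, whose sorted columns differ by 0, served as an alternative. The columns of the other 4 arrays were not used here.

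Probes were named through the platform's annotation table, which can be old. Of 47319 probes, 17199 had no symbol, 8 had several, and 30073 were matched to RefSeq. Calculations used Python 3.11.15 with pandas 2.3.3, and limma 3.58.1 in R 4.3.3 for a normexp alternative with an offset of 16. The ranking and counting steps were tested on simulated data. No contrast was fitted and no p-value was computed, since a single group is described. Other alternatives were a detection limit of 0.01, any probe or the mean over the probes of a gene, probes matched to RefSeq only, and each mock array alone.

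The text names the 25 highest genes, the 5 markers, the defining members of each list, the 4 further highest members of each list and the 2 highest of each family, without XIST and Y-linked genes. Other genes, among them undetected list members and examples of discordant probes, were named after their values were seen. Of 943 list entries, 884 had a named probe, and the others were not analysed here. The members and lists were chosen with earlier results of these data known. Promoter sequences and gene types came from RefSeq, GRCh38.p14, with 75.0% of the genes matched to a promoter.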

Additional observations from a re-analysis of the deposited data

How the results depend on the processing

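At a detection limit of 0.01, 9809 genes were detected on both arrays and 9267 on neither, and the genes detected on 1 array fell to 969, against 1520 at 0.05. Counting any probe gave 10708 genes and keeping only RefSeq probes 10687. Each array alone gave between 11427 and 11549. Of the 1002 high genes, 1002 stayed high in the second value table, 1001 after normexp, 828 with the mean over probes, and between 972 and 975 with 1 array. In the second value table and after normexp, percentiles of 319 named genes shifted by at most 0.0249 and 4.24 points. These 2 settings keep nearly the same order, so they could hardly change the high genes. Spearman's rho over the high genes alone was 0.968. Small counts of markers moved most, since 1 or 2 genes decide them. At a limit of 0.01, leukocyte markers gave 3 and hepatocyte markers 1. With each array alone, the ranges were 4 to 5 for keratinocyte markers, 6 to 8 for leukocyte markers, 6 to 8 for neuron and glia markers and 1 to 2 for muscle markers. Over 70 lists and families, 61 stayed within 1.5 times at a limit of 0.01, 60 without mock replicate 1 and 63 without mock replicate 2. The percentile of 43 of 319 named genes moved by over 5 points with the mean over probes, the largest shift being 25.2 points. TFAP2A was at percentile 87.0 by its brightest probe and at 72.6 by the mean over its probes. No paired analysis was possible because 1 group is described and no test was made. Without 1 of the arrays no correlation between arrays can be computed.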

Other observations

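Of the 17199 probes without a gene symbol in the platform table, 3962 (23.04%) were detected on both mock arrays, against 46.8% of the probes with 1 symbol, and 461 of them reached the limit of the high genes. The brightest unnamed probe gave 17113 and 16680 on the mock arrays.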
